A study of Homo sapiens with 6 samples.

Results

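FRAT1 and FRAT2, the proteins that bind glycogen synthase kinase 3 (GSK3), and 8 genes of the beta-catenin destruction complex were examined in AGS cells transfected with mimics of the microRNA miR-3648 or with a negative control (NC). The 10 genes were chosen by name: FRAT1, FRAT2, GSK3A, GSK3B, AXIN1, AXIN2, APC, CTNNB1, CSNK1A1 and BTRC. All 10 were found among the 11187 protein-coding genes of the deposited table. AGS is a long-established human cell line grown from a gastric adenocarcinoma. All libraries came from total RNA of this line, without any other genetic change named, after transient transfection with the mimics (3 libraries) or with NC (3 libraries). The sources used here give neither the hours after transfection nor what the NC is. By its title, the study concerns a feedback loop of miR-3648, FRAT1 and FRAT2, and c-Myc in gastric cancer cells.

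The destruction complex keeps free beta-catenin low. AXIN1 or AXIN2 and APC form the scaffold on which casein kinase 1 alpha (CSNK1A1) and GSK3 phosphorylate beta-catenin (CTNNB1), and the F-box protein beta-TrCP (BTRC) then marks it for the proteasome. FRAT proteins bind GSK3 and can draw it away from axin, so they act as positive regulators of Wnt signalling. AXIN2 is itself a target gene of beta-catenin, and AGS cells are known to carry an activating CTNNB1 mutation in the region that GSK3 phosphorylates; both groups share this background.

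The seed of miR-3648 is shown first, since the study ties this microRNA to FRAT1 and FRAT2. The mature sequence in RefSeq (gene MIR3648-2, GRCh38.p14, chromosome 21 from 8987026 to 8987046 on the plus strand) is printed with its seed, bases 2 to 8, in capitals. The transfected mimic's own sequence was not among the sources used here.
hsa-miR-3648: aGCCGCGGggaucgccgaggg
The letters CCGCGGC, the reverse complement of the seed (7mer-m8), or CGCGGCA (7mer-A1), were searched on the sense strand of the longest protein-coding GENCODE v29 transcript of each gene. The 3 windows below carry the matches in the coding sequences of FRAT1 and FRAT2 and in the 3' UTR of FRAT2, with the match in capitals.
FRAT1, coding sequence: gccctgggggaCCGCGGCcgcgtgcgggg
FRAT2, coding sequence: gccctaggggaCCGCGGCcgcgtgcgcgg
FRAT2, 3' UTR: gaagttaccagCCGCGGCgaggccgtcgg
The coding matches start at transcript base 538 in FRAT1 and 488 in FRAT2, and the 2 windows were identical at 27 of 29 bases. Over the aligned coding sequences FRAT1 (279 codons) and FRAT2 (233 codons) were identical at 88.3% of 700 bases. The longest run of bases shared without a mismatch by the 2 transcripts was 74, so reads from such stretches could be shared between them.

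FRAT2 was the single gene among the 10 with a match in the 3' UTR, against 2.02% of 10211 tested genes. Matches elsewhere were commoner in the transcriptome, at 13.6% of genes for the coding sequence and 15.7% for the 5' UTR. FRAT1 held 3 matches, 2 of them in its 5' UTR, AXIN2 held 2 in its coding sequence, and AXIN1 and GSK3B held 1 each in the 5' UTR. GSK3A, APC, CTNNB1, CSNK1A1 and BTRC held none in the transcript searched. A match is a string of letters and not a measured binding site.

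The values are FPKM, fragments scaled to transcript length and to the library's mapped fragments, as deposited by the authors. Each library's FPKM summed to between 208274 and 222947, and sequencing depth is unknown. Of the epithelial markers, EPCAM, KRT8, KRT18 and KRT19 were high in all 6 libraries, with a lowest value of 146 FPKM, for KRT8 in NC replicate 3. EPCAM was at 196 to 206 FPKM in mimic libraries and 177 to 185 FPKM in NC libraries. VIL1 was at 44.5 to 47.5 FPKM in mimic libraries and 30.4 to 34.4 FPKM in NC libraries. Both lay above NC without overlap, beside 8.68% of tested genes. The rest of that list was low, among them the keratin gene KRT7 at 1.85 to 2.33 FPKM, the E-cadherin gene CDH1 at 2.48 to 4.20 FPKM and the gastric trefoil gene TFF1 at 0.238 to 1.39 FPKM. Of the fibroblast, leukocyte and endothelial markers, 2 of 8, 3 of 7 and 1 of 6 were listed, and PTPRC, PECAM1 and COL1A2 were not in the table used here. The fibroblast sums lay between 3.88 and 4.28 FPKM in mimic libraries and between 4.002 and 4.19 FPKM in NC libraries. The leukocyte sums were 5.69 to 6.10 FPKM in mimic libraries and 6.98 to 8.05 FPKM in NC libraries, without overlap, and their part in the results on the 10 genes was not tested. The endothelial marker ESAM was at 1.87 to 2.84 FPKM in mimic libraries and 1.95 to 2.96 FPKM in NC libraries.

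One NC library stood apart from the other two. For 60.8% of the tested genes, NC replicate 3 lay beyond both other NC libraries on the side of the mimic mean, and this held for 8 of the 10 genes studied here, GSK3B and BTRC being the exceptions. The fold changes of the 10 genes and the counts of the further gene lists are therefore also given without NC replicate 3. This library was singled out for lying on the mimic side, so leaving it out tends to widen differences and to narrow the NC spread. Calls gained in that setting are not separate support for a difference.

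**Figure D1:**
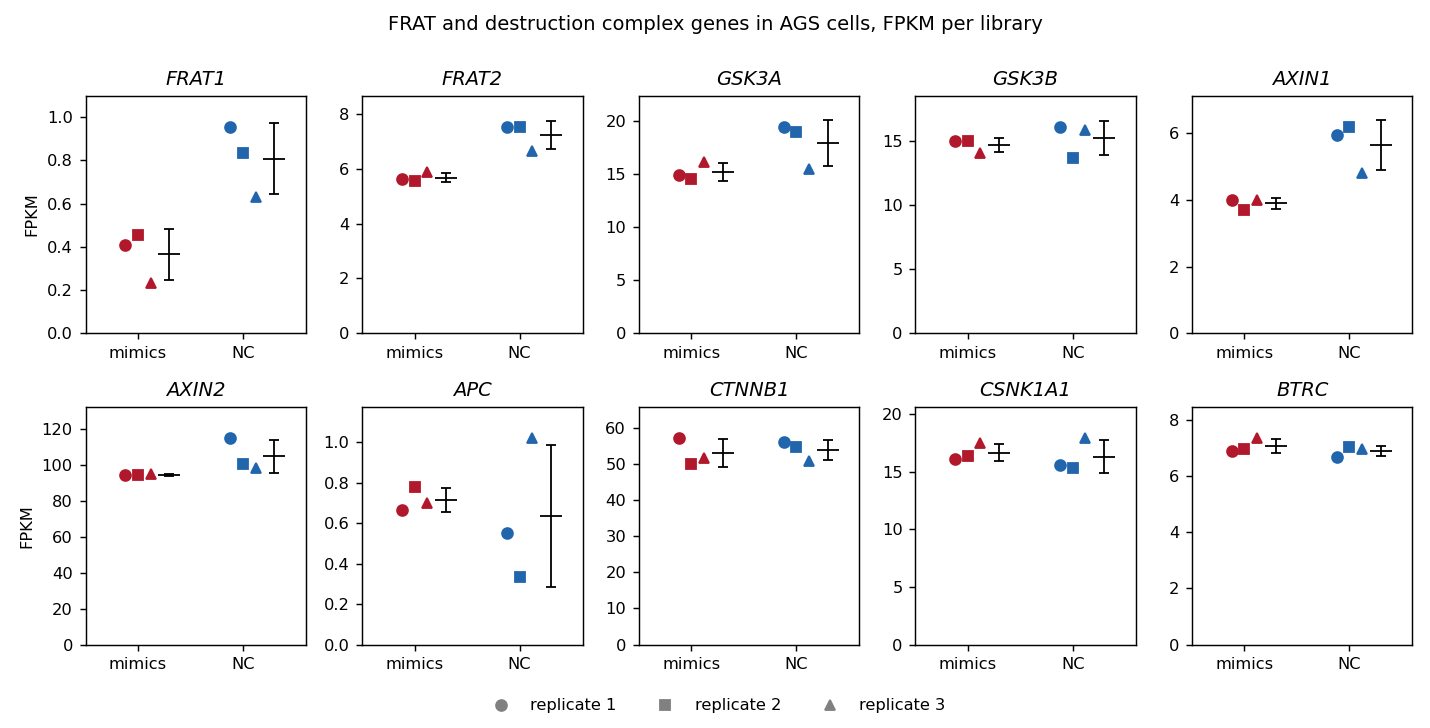
FPKM of the 10 genes in each library, mimics in red and NC in blue, with marker shapes for replicate numbers and black bars for the mean and SD of 3 libraries. The mimic values of FRAT1, FRAT2, AXIN1 and AXIN2 lie below all their NC values, and the triangle of NC replicate 3 is the lowest NC point in each of these 4 panels.

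No gene of the set passed the limma test across all genes, in which 0.408% of 10286 tested genes were called at an adjusted p of 0.05. FRAT2 and AXIN1 had an unadjusted p under 0.05 among the 8 genes that were tested, and FRAT1 had one in a fit without the filter on low values. For comparison, 14.6% of all tested genes had an unadjusted p under 0.05. The groups of FRAT1, FRAT2, AXIN1 and AXIN2 did not overlap, all 4 lower in mimic libraries, beside 13.7% of listed genes with mimic libraries below NC. Of the 10 genes 0 had mimic libraries above NC, beside 8.68% of tested genes. The median log2 fold change was -0.09 over the 8 tested members of the set and -0.0046 over the whole table of tested genes. Because the labels do not say whether the libraries came from separate cultures, these p-values measure only the spread between libraries.

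FRAT2 was the main FRAT transcript in these cells. It had 5.63, 5.54 and 5.87 FPKM in mimic replicates 1 to 3, against 7.52, 7.54 and 6.65 FPKM in NC replicates 1 to 3. The mimic values were tightly grouped and all lay below the lowest NC value, which was that of NC replicate 3. The mean was 5.68 ± 0.170 FPKM in mimic libraries and 7.24 ± 0.505 FPKM in NC libraries (SD, n = 3 each), a difference of -21.5%. The log2 fold change of FPKM + 1 was -0.30 (SE 0.08, 95% interval -0.49 to -0.11), with a limma adjusted p of 0.21.

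FRAT1 was the lowest of the 10 genes and lay under the filter of a mean of 1 FPKM. It had 0.410, 0.456 and 0.233 FPKM in mimic replicates 1 to 3, against 0.957, 0.835 and 0.631 FPKM in NC replicates 1 to 3. No mimic value reached the lowest NC value, and mimic replicate 3 was the lowest of all. The mean of 0.366 ± 0.117 FPKM in mimic libraries stood against 0.808 ± 0.164 FPKM in NC libraries (SD, n = 3 each). A two-sided exact permutation test returned p = 0.1, the lower limit for 3 libraries against 3. In the limma fit without the filter, where 0.349% of 11187 genes were called, the log2 fold change was -0.40 (SE 0.10, adjusted p = 0.19), a scale on which the added 1 FPKM shrinks the change of such a low gene. With 0.1 FPKM added in place of 1, the difference of log2 means was -0.98.

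Without NC replicate 3, FRAT2 passed the limma test, as did 14.8% of all tested genes in that setting, 7.09% being lower and 7.76% higher in mimic libraries. FRAT1 passed in the fit without the filter, where 755 of 11187 genes were called higher and 703 lower. The calls of this setting in the set were FRAT2, GSK3A and AXIN1, and FRAT1 in the fit without the filter, all lower. The log2 fold change was then -0.35 for FRAT2 (adjusted p = 0.030) and -0.48 for FRAT1 in the fit without the filter (adjusted p = 0.041). The exact permutation test of FRAT1 in these 5 libraries gave p = 0.2, the lower limit there. When GC content was also corrected in these 5 libraries, a setting added after seeing the data, FRAT2 had a limma adjusted p of 0.18 and FRAT1 one of 0.17. On GRCh37 the 2 genes lie 10581 bases apart on chromosome 10, FRAT1 (ENSG00000165879) from 99079024 to 99081672 on the plus strand and FRAT2 (ENSG00000181274) from 99092254 to 99094466 on the minus strand, and no other listed gene overlaps them.

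The GSK3 genes differed from each other in their values. GSK3A, the gene of GSK3 alpha, had 14.9, 14.5 and 16.1 FPKM in mimic replicates 1 to 3, against 19.5, 18.9 and 15.4 FPKM in NC replicates 1 to 3. The groups overlapped through NC replicate 3, which lay inside the mimic range. Its log2 fold change was -0.22 (95% interval -0.47 to 0.02, limma adjusted p = 0.38) with all libraries, and -0.32 without NC replicate 3 (adjusted p = 0.037). With GC correction in the same 5 libraries it was -0.19 (adjusted p = 0.21), so that call was lost. A listed gene, AC006486.1, overlaps GSK3A on the same strand and can exchange reads with it. AC006486.1 was at 0.942 ± 0.155 FPKM in mimic libraries and 1.79 ± 0.926 FPKM in NC libraries (SD, n = 3 each). The sum of both genes was 16.1 ± 0.804 FPKM in mimic libraries and 19.7 ± 2.88 FPKM in NC libraries, again with overlap.

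GSK3B, the gene of GSK3 beta, had 15.0, 15.0 and 14.1 FPKM in mimic replicates 1 to 3, against 16.1, 13.7 and 15.9 FPKM in NC replicates 1 to 3. The groups overlapped fully, and the interval of the log2 fold change ran from -0.25 to 0.16 (limma adjusted p = 0.82). The summed FPKM of both GSK3 genes was 29.9 ± 0.333 in mimic libraries and 33.2 ± 2.20 in NC libraries (SD, n = 3 each). The groups did not overlap (exact permutation p = 0.1, the smallest possible). The highest mimic sum was 30.2 FPKM and the lowest NC sum 31.3 FPKM, in NC replicate 3. Of single tested genes, 13.5% had mimic libraries below NC without overlap.

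**Figure D2:**
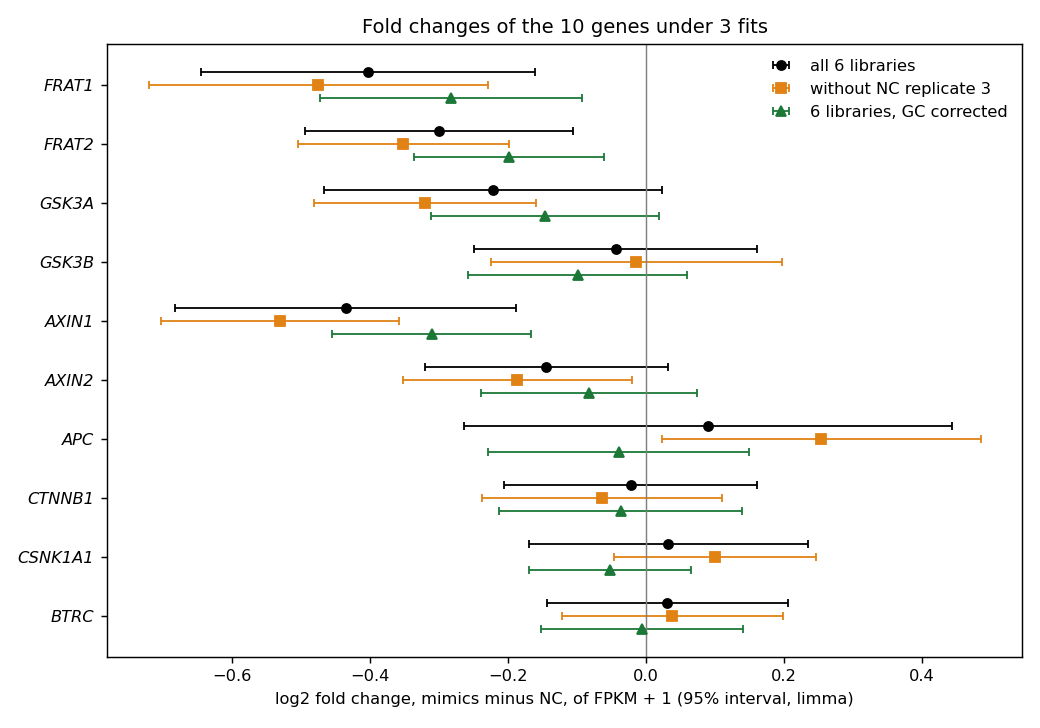
Log2 fold change of FPKM + 1 (mimics minus NC) for each gene with its 95% interval from limma, with all 6 libraries, without NC replicate 3, and with all 6 libraries after correction for GC content. FRAT1 and APC come from fits without the filter on low values. AXIN1 has the lowest point of the 10 in each of the 3 fits, at -0.44, -0.53 and -0.31. The GC-corrected points of FRAT1, FRAT2, GSK3A, AXIN1 and AXIN2 lie nearer to 0 than the uncorrected ones of all 6 libraries. Those of APC and BTRC also lie nearer to 0, with the sign turned, and those of GSK3B, CTNNB1 and CSNK1A1 lie further from 0.

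AXIN1, the scaffold that holds GSK3, casein kinase 1 and beta-catenin together, had the lowest log2 fold change of the 10 genes with 1 FPKM added to each value. With 0.5 FPKM added, FRAT1 was lower, at -0.60 against -0.48 for AXIN1. AXIN1 was at 4.003, 3.70 and 3.99 FPKM in mimic replicates 1 to 3, against 5.94, 6.21 and 4.80 FPKM in NC replicates 1 to 3. No mimic library reached the lowest NC library, which was NC replicate 3. The mean was 3.90 ± 0.173 FPKM in mimic libraries and 5.65 ± 0.744 FPKM in NC libraries (SD, n = 3 each), a difference of -31.0%. The log2 fold change was -0.44 (SE 0.10, 95% interval -0.68 to -0.19, limma adjusted p = 0.18). It was -0.53 without NC replicate 3 (adjusted p = 0.025) and -0.33 there with GC correction (adjusted p = 0.085).

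AXIN2, the axin whose gene is a target of beta-catenin, was the most abundant of the 10. It had 94.2, 94.1 and 94.8 FPKM in mimic replicates 1 to 3, against 115, 101 and 98.5 FPKM in NC replicates 1 to 3. The groups did not overlap, yet the gap between the highest mimic value and the lowest NC value was small beside the spread of the NC libraries. The mean of 94.4 ± 0.381 FPKM in mimic libraries and of 105 ± 9.03 FPKM in NC libraries (SD, n = 3 each) gave a log2 fold change of -0.14 (95% interval -0.32 to 0.03, limma adjusted p = 0.40). Without NC replicate 1, the highest of the 6 libraries, it was -0.075. The gene AC004805.1 overlaps AXIN2 on the same strand and was at 0.376 ± 0.183 FPKM in mimic libraries and 0.959 ± 0.721 FPKM in NC libraries (SD, n = 3 each). With it added, the groups of AXIN2 still did not overlap.

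APC, the large scaffold protein that is lost in many colorectal tumours, lay near FRAT1 at the low end. It had 0.666, 0.780 and 0.698 FPKM in mimic replicates 1 to 3, against 0.552, 0.331 and 1.02 FPKM in NC replicates 1 to 3. The NC libraries spread on both sides of the mimic values, with NC replicate 3 the highest of the 6. The exact permutation test gave p = 0.7 (two-sided, n = 3 each). The mimic values all lay above NC replicates 1 and 2, and the limma fit without NC replicate 3 and without the filter gave a log2 fold change of 0.25 (adjusted p = 0.11).

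CTNNB1, which encodes beta-catenin, had 57.3, 50.1 and 51.8 FPKM in mimic replicates 1 to 3, against 56.1, 54.7 and 50.7 FPKM in NC replicates 1 to 3. The groups overlapped, and the highest and the lowest value of the 6 were both mimic libraries. Its log2 fold change was -0.02 (95% interval -0.21 to 0.16, limma adjusted p = 0.90). Beta-catenin is controlled by protein turnover in this pathway, and protein was not measured in these files.

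The kinase and the ubiquitin ligase adaptor that act on beta-catenin also had overlapping groups. CSNK1A1 was at 16.7 ± 0.717 FPKM in mimic libraries and 16.3 ± 1.44 FPKM in NC libraries (SD, n = 3 each; 95% interval of the log2 fold change -0.17 to 0.23). CSNK1A1 has 2 pseudogenes by symbol in GENCODE v29, which can share its reads. BTRC, the adaptor that recognises phosphorylated beta-catenin, was at 7.08 ± 0.252 FPKM in mimic libraries and 6.91 ± 0.182 FPKM in NC libraries (SD, n = 3 each; 95% interval -0.14 to 0.21). Without NC replicate 3 the log2 fold change was -0.19 for AXIN2, -0.06 for CTNNB1, -0.01 for GSK3B, 0.10 for CSNK1A1 and 0.04 for BTRC. The limma adjusted p of these 5 genes was between 0.11 (AXIN2) and 0.92 (GSK3B) in that setting.

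On GRCh37, GSK3A (ENSG00000105723) spans 42734338 to 42746777 of chromosome 19 and GSK3B (ENSG00000082701) 119540170 to 119813264 of chromosome 3. AXIN1 (ENSG00000103126) spans 337440 to 402673 of chromosome 16, AXIN2 (ENSG00000168646) 63524681 to 63557765 of chromosome 17 and CSNK1A1 (ENSG00000113712) 148871760 to 148931115 of chromosome 5. These 5 genes lie on the minus strand. On the plus strand, APC (ENSG00000134982) spans 112043195 to 112181936 of chromosome 5, CTNNB1 (ENSG00000168036) 41236328 to 41301587 of chromosome 3 and BTRC (ENSG00000166167) 103113790 to 103317078 of chromosome 10. Each gene has a single FPKM value per library, so isoforms were not separated.

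Levels were set side by side in FPKM, which is scaled by transcript length. They are not corrected for GC content, for reads shared between similar genes or for isoforms. AXIN2 stood first at a mean of 99.5 FPKM over the 6 libraries, and CTNNB1 second at 53.4 FPKM, with no overlap between them. GSK3A, CSNK1A1 and GSK3B followed at 16.6, 16.5 and 15.0 FPKM, and neighbours in this trio overlapped in range. BTRC at 6.99, FRAT2 at 6.46 and AXIN1 at 4.77 FPKM came next. BTRC overlapped FRAT2 and FRAT2 overlapped AXIN1 in range, although FRAT2 exceeded AXIN1 in each of the 6 libraries. APC and FRAT1 were lowest at 0.675 and 0.587 FPKM and overlapped each other.

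Ratios within a library compare related genes without the library total. They are not corrected for GC content, in which the genes differ, such as 62.4% for AXIN1 and 55.3% for AXIN2. The part of GC content in the ratios was not tested. The FPKM of AXIN2 was 23.5, 25.4 and 23.7 times that of AXIN1 in mimic replicates 1 to 3, and 19.4, 16.2 and 20.5 times in NC replicates 1 to 3. The mimic ratios were all higher (exact permutation p = 0.1, the smallest possible). The summed FPKM of FRAT1 and FRAT2 was 0.202 ± 0.000843 of the summed FPKM of GSK3A and GSK3B in mimic libraries and 0.242 ± 0.0127 in NC libraries (SD, n = 3 each). This ratio was also without overlap, lower in all mimic libraries (exact permutation p = 0.1). The FPKM of FRAT2 was 12.2 to 25.2 times that of FRAT1 in mimic libraries and 7.86 to 10.5 times in NC libraries, a ratio that rests on the low FRAT1 values. GSK3A over GSK3B was 1.03 ± 0.0993 in mimic libraries and 1.19 ± 0.206 in NC libraries (SD, n = 3 each), with overlap (exact permutation p = 0.3). The 4 ratios are not independent of each other, and none can pass a threshold of 0.05 in this design.

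**Figure D3:**
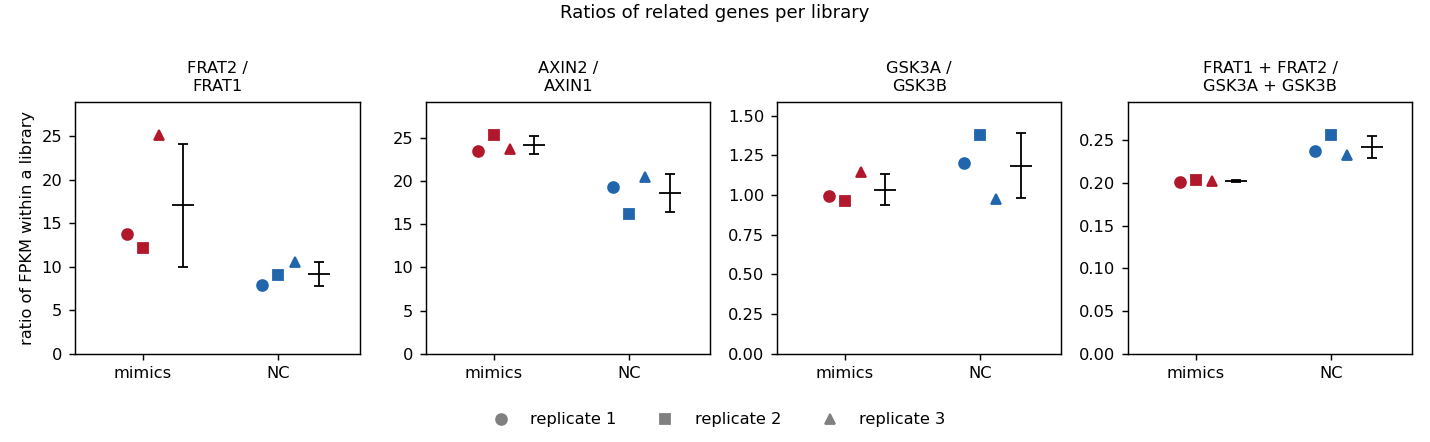
Ratio of FPKM within each library for 4 pairs of related genes or sums, mimics in red and NC in blue, with black bars for the mean and SD of 3 libraries. The mimic points lie above all NC points for AXIN2 over AXIN1, and below them for the FRAT sum over the GSK3 sum, where mimic libraries average 0.202 and NC libraries 0.242.

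The order of the fold changes followed the base composition of the genes. AXIN1, FRAT1 and FRAT2, with the lowest fold changes, had GC contents of 62.4%, 62.2% and 60.2% over their GENCODE v29 transcripts. GSK3A and AXIN2 were next in both, at 56.7% and 55.3%. The other 5 genes lay between 39.7% (APC) and 46.8% (CTNNB1). Spearman's rho between log2 fold change and GC content was -0.96 over the 10 genes, which share the same libraries, and -0.51 over 10211 tested genes. After correction for GC content, the log2 fold change was -0.31 for AXIN1 (limma adjusted p = 0.074), -0.20 for FRAT2 (adjusted p = 0.16) and -0.28 for FRAT1 (adjusted p = 0.15). The sign of APC, CSNK1A1 and BTRC turned from positive to negative with this correction, all 3 near 0. GSK3B and CTNNB1 moved further from 0, to -0.099 and -0.037, so that all 10 genes then had a negative log2 fold change. The median over the 8 tested genes of the set was -0.091 after correction and -0.094 before it. Over all tested genes it was -0.0044 after correction. No gene of the set was called after it.

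**Figure D4:**
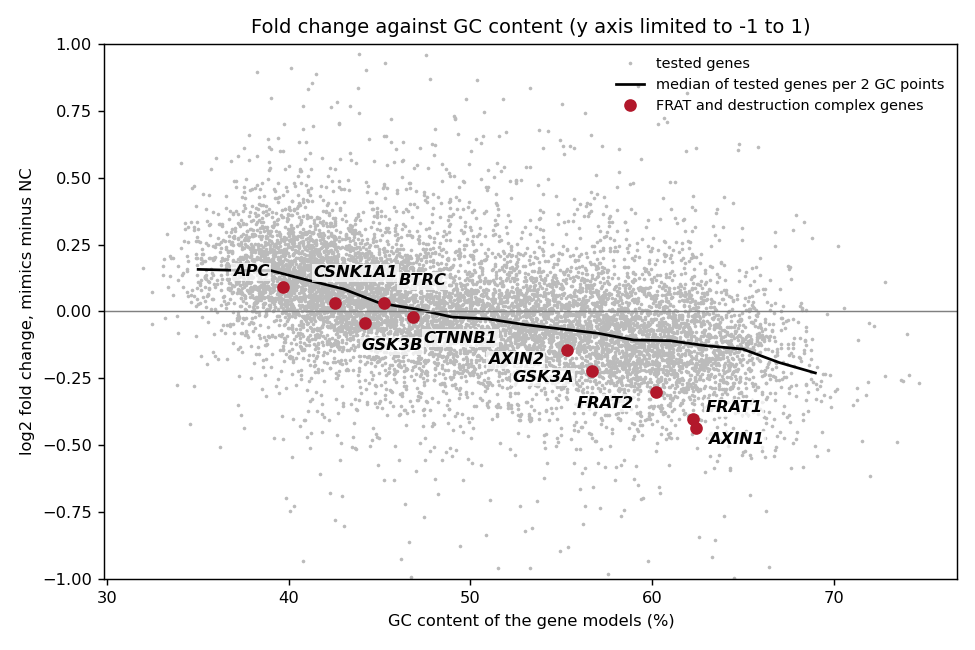
Log2 fold change (mimics minus NC) against GC content of the gene models for tested genes in grey and for the 10 genes in red, with the running median of tested genes as a black line. The y axis leaves out 32 tested genes beyond 1 log2 unit. The red points run from APC at 39.7% GC to AXIN1 at 62.4% GC, and those of GSK3A, FRAT2, FRAT1 and AXIN1 lie below the black line. After the lowess correction for GC content, all 10 genes had a negative log2 fold change, from -0.31 for AXIN1 to -0.0059 for BTRC.

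Among the genes whose library pattern was most like that of FRAT2 were CHDH and SLC4A11, with Pearson's r of log2(FPKM + 1) over 6 libraries of 0.999 and 0.995. For FRAT1 the closest were HACL1, TINF2 and TLE1, with r of 0.996 to 0.997. FRAT1 and FRAT2 had an r of 0.89 with each other. These values are descriptions over 6 libraries, chosen as the highest among 10286 tested genes.

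Other parts of the same machinery were described by counts, to be read beside the 0.408% of tested genes called and the 13.5% with mimic libraries below NC. Of 18 tested further components and GSK3 scaffolds, such as casein kinase 1 and phosphatase 2A subunits, 0 passed the limma test, and 6 had mimic libraries below NC without overlap (median log2 fold change -0.04). PPP2R5D, a regulatory subunit of phosphatase 2A, was at 9.47 ± 0.260 FPKM in mimic libraries and 14.1 ± 3.12 FPKM in NC libraries (SD, n = 3 each; limma adjusted p = 0.24). DAB2IP, a Ras GTPase-activating protein gene, was at 9.02 ± 0.216 FPKM in mimic libraries and 11.99 ± 1.79 FPKM in NC libraries. CSNK1E, a casein kinase 1 gene of Wnt signalling, was at 9.21 ± 0.451 FPKM in mimic libraries and 10.9 ± 0.965 FPKM in NC libraries. Without NC replicate 3, 3 of this list passed, all lower, and with GC correction in those 5 libraries 0 passed.

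Of 22 tested genes of axin turnover and beta-catenin ubiquitination, 0 passed (median -0.01). USP7, a deubiquitinase gene, was at 22.2 ± 0.417 FPKM in mimic libraries and 25.5 ± 1.28 FPKM in NC libraries without overlap (SD, n = 3 each). USP34, whose product deubiquitinates axin, was at 9.49 ± 0.398 FPKM in mimic libraries and 7.76 ± 1.75 FPKM in NC libraries with overlap. Without NC replicate 3, 1 gene of this list was called higher, USP34 (adjusted p = 0.036), and 1 lower. Of 17 tested genes in a mixed list of Wnt receptors and other genes, which also held PORCN, WLS and CXXC1, 0 passed (median -0.12). The Wnt receptor gene FZD7 was at 13.3 ± 0.427 FPKM in mimic libraries and 17.7 ± 1.95 FPKM in NC libraries, without overlap (log2 fold change -0.38, limma adjusted p = 0.18). Leaving out NC replicate 3, 1 gene of this mixed list was called higher and 2 lower, FZD7 among them (adjusted p = 0.036). With GC correction in those 5 libraries, 0 passed in either list.

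Of 14 tested partners of beta-catenin at junctions and in the nucleus, 0 passed, and 12 had a negative log2 fold change (median -0.16), beside 51.0% of all tested genes. The 4 with mimic libraries below NC were the coactivator genes CREBBP, EP300 and BCL9 and the transcription factor gene TCF7L2, with log2 fold changes of -0.21 to -0.18. In the 5 libraries without NC replicate 3, 1 partner gene was called higher and 1 lower, and none of these 4 passed. Of 17 tested target genes of beta-catenin, 0 passed, while 6 lay below and 2 above NC without overlap (median -0.10). CCND1, the cyclin D1 gene, had 108, 117 and 114 FPKM in mimic replicates 1 to 3, against 140, 146 and 136 FPKM in NC replicates 1 to 3 (log2 fold change -0.31, limma adjusted p = 0.13). SP5, a transcription factor gene, was at 26.5 ± 2.19 FPKM in mimic libraries and 39.4 ± 5.89 FPKM in NC libraries (adjusted p = 0.16). The Wnt antagonist gene DKK1 was at 16.1 ± 0.716 FPKM in mimic libraries and 13.2 ± 0.412 FPKM in NC libraries, above NC without overlap (adjusted p = 0.21). MYC, the c-Myc gene, had 19.6, 2.09 and 1.85 FPKM in mimic replicates 1 to 3, against 2.005, 1.25 and 1.87 FPKM in NC replicates 1 to 3. Its log2 fold change of 1.08 (adjusted p = 0.50), the highest of this list, rests on mimic replicate 1, and MYC is named here after its values were seen. With NC replicate 3 left out, 2 target genes were called higher and 5 lower, with adjusted p of 0.028 for CCND1, 0.024 for SP5 and 0.046 for DKK1. With GC correction in those 5 libraries, 0 passed among these targets or among the partners of beta-catenin.

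Among 18 tested GSK3 substrates and regulators of GSK3, 1 rose and 1 fell. DPYSL3, of the collapsin response mediator family that binds microtubule proteins, had 2.32, 1.99 and 2.17 FPKM in mimic replicates 1 to 3, against 0.904, 0.605 and 0.703 FPKM in NC replicates 1 to 3 (log2 fold change 0.87, SE 0.10, limma adjusted p = 0.026). MCL1, an anti-apoptotic protein that GSK3 phosphorylates for degradation, had 50.7, 50.6 and 51.3 FPKM in mimic replicates 1 to 3, against 72.1, 71.8 and 74.7 FPKM in NC replicates 1 to 3 (log2 fold change -0.51, SE 0.06, adjusted p = 0.026). The NC values of DPYSL3 all lay under 1 FPKM, so it passed the filter of a mean of 1 FPKM through its mimic values. With no filter on low values, 1 gene of this list was called higher and 1 lower. In both genes the groups lay well apart, and the calls held without NC replicate 3 and with GC correction. The limma calls of both were lost when any one of the other 5 libraries was left out, with adjusted p up to 0.15 for DPYSL3 and 0.17 for MCL1 and nearly unchanged fold changes. AKT1, a kinase gene whose product inhibits GSK3, was at 3.69 ± 0.274 FPKM in mimic libraries and 5.23 ± 0.837 FPKM in NC libraries without overlap (adjusted p = 0.22). JUN, a transcription factor gene, was at 32.7 ± 0.740 FPKM in mimic libraries and 25.2 ± 3.56 FPKM in NC libraries without overlap (limma adjusted p = 0.22). With GC correction in all 6 libraries, 2 genes of this list were called higher, DPYSL3 and JUN (adjusted p = 0.041 for JUN), and 1 lower. Without NC replicate 3, 3 genes of this list were called higher and 1 lower, and the counts were the same with GC correction in those 5 libraries.

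**Figure D5:**
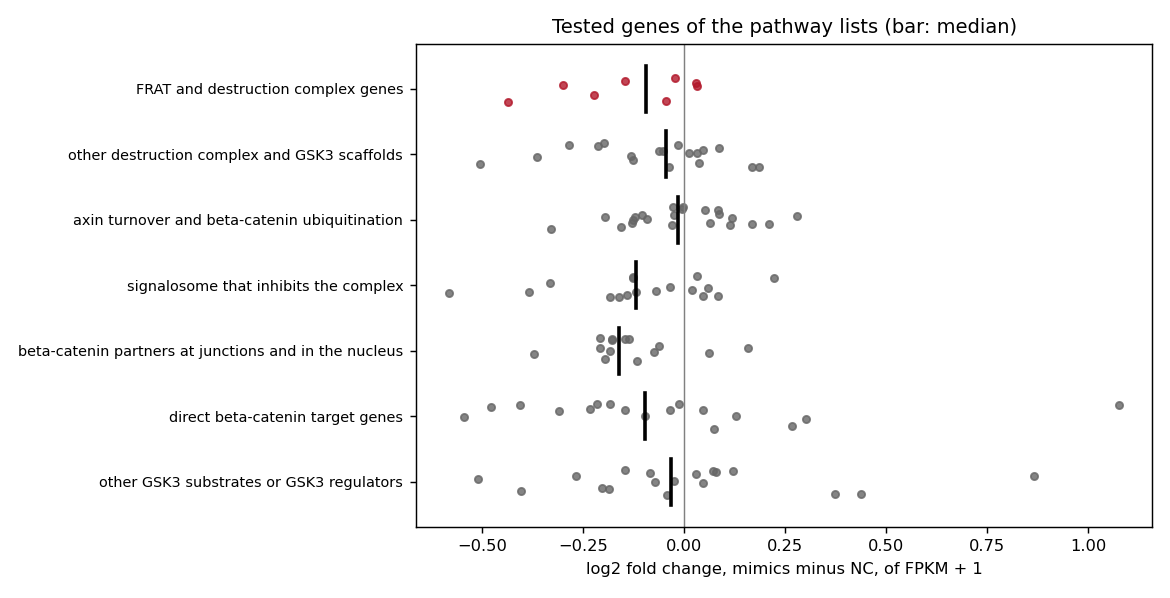
Log2 fold change of FPKM + 1 (mimics minus NC) for the tested genes of each list, 1 point a gene, with a black bar for the median, and the FRAT and destruction complex genes in red. The medians lie between -0.16 and -0.01, and the points far to the right are MYC at 1.08 and DPYSL3 at 0.87. After GC correction, which the figure does not show, the medians lie between -0.098 (partners of beta-catenin) and -0.027 (GSK3 substrates and regulators). The list with the Wnt receptors then has -0.036 and the target genes -0.056. The medians of axin turnover and of the further components are more negative than before, at -0.045 and -0.050. Over all tested genes the corrected median is -0.0044.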

How the data were processed

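RNA-seq values of 6 AGS libraries, 3 per group by title, came from 1 deposited table. The authors deposited FPKM, and StringTie 1.3.3, cutadapt and the build GRCh37 are named per the submitters' processing notes. Aligner, annotation release and strand setting were not given in the sources used here. Genes that overlap on one strand, and the similar FRAT1 and FRAT2, may share reads. Values were used as log2(FPKM + 1) without further scaling. Genes with a mean of at least 1 FPKM (10286 of 11187) entered a limma fit (version 3.58.1 under R 4.3.3; trended prior variance, two-sided) with Benjamini-Hochberg adjustment over all tested genes. FRAT1 and APC lay below the filter and came from a fit of all genes and from exact permutation tests over 20 assignments (scipy 1.17.1). The fit was run on simulated data with independent noise, to check only that known fold changes were recovered on average. The simulation held no GC trend and no displaced library, so it does not bear on the calls here. GC content was the mean over the basic protein-coding GENCODE v29 transcripts of a gene (GRCh38, so no coordinates were taken from it), available for 99.3% of tested genes, and was corrected per library with a lowess curve of span 0.3. Named genes were the 10, up to 4 genes of smallest p per list, of which some are given, and the 3 most similar in pattern to each FRAT gene, of which 1 is not reported here. The genes, lists and tests were chosen with earlier results of these data known. Depth is unknown, so no counting interval is given.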

Additional observations from a re-analysis of the deposited data

How the results depend on the processing

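The count of called genes, 42 of 10286 with all libraries, ranged from 8 to 1527 when single libraries were left out, and the highest count was without NC replicate 3. It was 100 with GC correction, 11 with the replicate block, 10 with GC correction and replicate block together, and 141 with GC correction without NC replicate 3, a setting added after seeing the data. The count of called genes of the set ranged from 0 to 3 over the left-out libraries, the 3 being FRAT2, GSK3A and AXIN1 without NC replicate 3. Over the left-out libraries the log2 fold change ranged from -0.48 to -0.33 for FRAT1, -0.35 to -0.27 for FRAT2, -0.32 to -0.16 for GSK3A, -0.53 to -0.37 for AXIN1, -0.19 to -0.075 for AXIN2, -0.11 to -0.0030 for GSK3B and 0.0053 to 0.046 for BTRC. It ranged from -0.047 to 0.25 for APC, -0.078 to 0.017 for CTNNB1 and -0.0075 to 0.10 for CSNK1A1, so the sign of these 3 rests on single libraries; the exact test of APC spanned the same range. With GC correction, with or without the replicate block, APC was at -0.040, CSNK1A1 at -0.053 and BTRC at -0.0059, and without NC replicate 3 as well CSNK1A1 was at -0.058 and BTRC at -0.031. In 148 of 165 combinations of gene and alternative the direction stayed and no call was gained, while 13 turned the direction and 4 gained a call. No gene of the set was called with all libraries in the main fit, so no call could be lost. Deviations of same-numbered libraries from their group means had r of 0.039, -0.042 and 0.068. Only for replicate 3 was the NC library of the same number the closest match. The labels do not say whether same-numbered libraries were paired, and these r values cannot decide it. The adjusted p ranged over the alternatives from 0.030 to 0.57 for FRAT2, 0.041 to 0.50 for FRAT1 and 0.025 to 0.51 for AXIN1. For the genes named from the other lists, 371 of 399 combinations kept direction and call, 14 lost a call (DPYSL3 and MCL1, also lost with the replicate block, adjusted p 0.060 and 0.13), 14 gained one and 0 turned. Genes with a mean under 5 FPKM have no value under that filter. The causes were not tested.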
